A study of Mus musculus with 2 samples.

Results

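Mir375 and the Mir7 genes are microRNA (miRNA) genes best known from hormone-secreting cells. They were followed here in mouse embryonic facial prominence, paired buds of mesenchyme with an epithelial cover from which the face and jaws grow. The members were the 4 genes with the GENCODE mouse symbols Mir375, Mir7-1 (also written Mir7a-1), Mir7-2 (also written Mir7a-2) and Mir7b, out of 1973 gene identifiers in the tables. Small RNA under 30 bases was sequenced from healthy embryos of the strain B6NCrl at 12.5 days. The study has 1 group of 2 libraries, described as biological replicates, and the labels name no treatment or mutant allele. Each library came from pooled embryos of both sexes, 120 in replicate 1 and 88 in replicate 2, so the level in a single embryo was not measured.

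A miRNA gene is transcribed as a longer RNA that folds into a hairpin. Enzymes then cut the hairpin to a short duplex, and a strand of it (the 5p or the 3p arm) guides Argonaute proteins to target messages, mainly through the seed, bases 2 to 8. In mice, miR-375 is abundant in the endocrine cells of the pancreatic islet, where it restrains insulin secretion and is needed for normal endocrine cell mass, and it is also found in the pituitary. miR-7 is conserved from flies to mammals and is abundant in the islet, the pituitary and neurosecretory neurons of the hypothalamus. In the mouse brain it is bound by the circular RNA Cdr1as.

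The hairpins show what the counts of each gene can hold. They are taken from RefSeq on GRCm38.p6, which matched all 4 symbols, and are written 5′ to 3′ with capitals on the arms that have a mature entry in that table. No mature sequence is printed for mmu-miR-375-3p.
Mir375: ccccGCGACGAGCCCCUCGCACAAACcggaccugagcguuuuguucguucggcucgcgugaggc
Mir7-1: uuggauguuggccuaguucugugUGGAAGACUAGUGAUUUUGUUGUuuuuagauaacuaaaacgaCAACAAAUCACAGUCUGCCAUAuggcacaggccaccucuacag
Mir7-2: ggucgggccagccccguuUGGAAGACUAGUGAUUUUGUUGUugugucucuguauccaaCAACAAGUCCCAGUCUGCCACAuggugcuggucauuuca
Mir7b: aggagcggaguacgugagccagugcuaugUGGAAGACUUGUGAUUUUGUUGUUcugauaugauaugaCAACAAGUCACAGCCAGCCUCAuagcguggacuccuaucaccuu

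The mature arms are given next with the seed in capitals, because they decide which reads can be told apart between the genes.
mmu-miR-375-5p: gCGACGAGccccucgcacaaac
mmu-miR-7a-5p: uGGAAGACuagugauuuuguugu
mmu-miR-7b-5p: uGGAAGACuugugauuuuguuguu
mmu-miR-7a-1-3p: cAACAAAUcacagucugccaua
mmu-miR-7a-2-3p: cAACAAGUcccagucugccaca
mmu-miR-7b-3p: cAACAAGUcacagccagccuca
The seed GGAAGAC was common to the 5p arms of all 3 Mir7 genes and was found in no other gene of the table. The seed AACAAGU joined mmu-miR-7a-2-3p and mmu-miR-7b-3p and also occurred in no other gene. The seed of mmu-miR-375-5p occurred in Mir375 only. That of mmu-miR-375-3p, which has no entry there, was not compared, and the counts of Mir375 do not show which arm they came from.

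The 5p arms of Mir7-1 and Mir7-2 were the same 23 bases, mmu-miR-7a-5p. Around that arm the hairpins were identical over 24 bases, and this was their longest common stretch. A read that lies wholly within it fits either hairpin. The tables keep reads with several mapping places in an entry apart from the genes, so such reads of mmu-miR-7a-5p are not in the count of Mir7-1 or Mir7-2. The counts of these 2 genes can hold their 3p arms and reads that reach past the common stretch, and the tables do not separate these. Of the 87 windows of 22 bases in the Mir7-1 hairpin, 3 also occurred in another listed hairpin, and so did 3 of the 76 windows in that of Mir7-2. No window of 18 bases or more of Mir375 or Mir7b occurred in another hairpin.

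Mir7b can be told apart from the Mir7a genes in every arm. Counted from 1 at the 5′ end, mmu-miR-7b-5p differs from mmu-miR-7a-5p by A10U and is 1 base longer. Its longest stretch in common with either Mir7a hairpin was 14 bases. From mmu-miR-7a-1-3p to mmu-miR-7a-2-3p there were 3 substitutions, A7G, A10C and U21C, of which A7G lies in the seed. From mmu-miR-7a-2-3p to mmu-miR-7b-3p there were 4, C10A, U14C, U16A and A20U, all outside it. How many mismatches the authors' alignment allowed is not given in the sources used here.

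The genes lie on separate chromosomes, and no other listed miRNA gene lies within 50 kb of any of them. Positions are from GENCODE M21 on GRCm38, which is the same assembly as mm10. Mir375 (ENSMUSG00000065616.2 in the tables) is at chr1:74900658-74900721 on the minus strand, between genes. Cfap65, a gene of cilia and flagella, lies 1349 bases away on its 5′ side, and the lens crystallin gene Cryba2 lies 7514 bases away on its 3′ side, both on the same strand. Mir7-1 (ENSMUSG00000065434.1) is at chr13:58392779-58392886 on the minus strand, in an intron of Hnrnpk, which encodes a widely expressed RNA-binding protein and is read from the same strand. Mir7-2 (ENSMUSG00000065609.1) is at chr7:78888277-78888373 on the plus strand, between genes, with Aen, an exonuclease gene of the p53 response, 7480 bases away on its 3′ side. Mir7b (ENSMUSG00000065491.1) is at chr17:56242988-56243098 on the plus strand, 182 bases past the end of the noncoding gene AC026385.1.

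The libraries held 11414919 reads (replicate 1) and 12792420 reads (replicate 2), of which 4719337 and 5929220 lay on the own strand of listed genes. Of all reads, 26.0% and 27.9% had several mapping places. A level is given in CPM, own-strand counts per 1000000 own-strand gene counts of the library. Detection meant 10 counts or more in each library, which 395 of the 1973 identifiers reached (20.02%). Intervals on single libraries are exact Clopper-Pearson intervals at the 95% level; they cover counting error only, and the SD is that of the 2 libraries. No condition was compared, so no p-value is given, and the spread between 2 pools is the only replicate error there is. All 4 genes were detected in both libraries.

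Mir375 had 3561 counts in replicate 1 and 4355 in replicate 2. These correspond to 755 CPM (interval 730 to 780) and 734 CPM (interval 713 to 757), so the libraries lay close together and their intervals overlapped. The mean was 745 ± 14.2 CPM (SD, n = 2), or 0.0755% and 0.0734% of the gene counts. That placed it at rank 114 of the 395 detected genes, above their median of 122 CPM and below their upper quartile of 1024 CPM. Which cells of the tissue gave these reads was not measured. In bulk tissue, fewer cells of a type and less RNA per cell cannot be told apart.

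Mir7-1, the copy inside Hnrnpk, had 579 counts in replicate 1 and 721 in replicate 2, which is 123 CPM (interval 113 to 133) and 122 CPM (interval 113 to 131). With a mean of 122 ± 0.768 CPM (SD, n = 2) it stood at rank 198, in the middle of the detected genes. This value leaves out reads that lie wholly within the stretch it has in common with Mir7-2.

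Mir7b, whose arms are all distinct, had 432 counts in replicate 1 and 683 in replicate 2. Its levels were 91.5 CPM (interval 83.1 to 101) and 115 CPM (interval 107 to 124), so replicate 2 was higher and the intervals did not overlap. The mean was 103 ± 16.7 CPM (SD, n = 2), at rank 209.

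Mir7-2 had the lowest count of the members and was the one that differed most between the pools. It had 221 counts in replicate 1 and 144 in replicate 2, or 46.8 CPM (interval 40.9 to 53.4) and 24.3 CPM (interval 20.5 to 28.6). Replicate 1 was thus the higher library here, again with intervals apart. The mean was 35.6 ± 15.9 CPM (SD, n = 2), at rank 257. Like that of Mir7-1, this value leaves out reads that lie wholly within the stretch the 2 genes have in common.

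**Figure D1:**
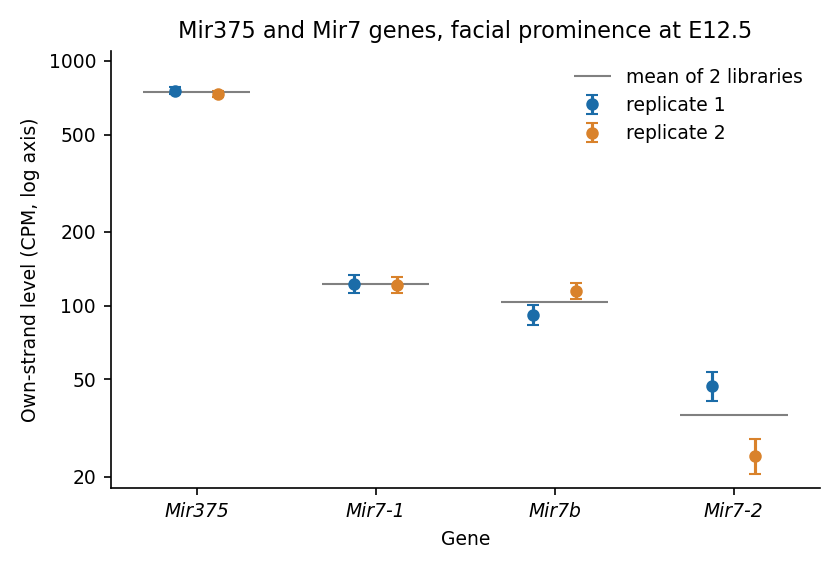
Own-strand level in CPM (log axis) of each member in replicate 1 (left point) and replicate 2 (right point), with exact 95% intervals for counting error and the mean of the 2 libraries as a grey line. Mir375 lies near 745 CPM in both libraries, Mir7-1 near 122 CPM, and the points of Mir7b and Mir7-2 lie apart in opposite directions.

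As counted, the order of the levels was Mir375, Mir7-1, Mir7b and Mir7-2 in both libraries. The counts are not on a like basis, since those of Mir7-1 and Mir7-2 leave out reads within their common 5p arm. Mir375 and Mir7b have no such stretch in common with another listed hairpin, and the rest of the genome was not searched. The ratios below therefore describe counts and not amounts of miRNA. Mir375 had 6.15 times the counts of Mir7-1 in replicate 1 (interval 5.63 to 6.73) and 6.04 times in replicate 2 (interval 5.58 to 6.54). Its lead over Mir7-1 of 622 CPM was far wider than the SD of either gene. Mir7-1 and Mir7b were not clearly separated. Their ratio was 1.34 in replicate 1 (interval 1.18 to 1.52) but 1.06 in replicate 2 (interval 0.949 to 1.17), and their means differed by 18.8 CPM, against a sum of their SDs of 17.5 CPM. Mir7b exceeded Mir7-2 by a ratio of 1.95 in replicate 1 (interval 1.66 to 2.31) and of 4.74 in replicate 2 (interval 3.96 to 5.72). The direction of that gap held in both libraries, while its size depended on the pool.

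A read of miRNA size covers a whole mature strand, so CPM is not divided by length here. Per 100 bases of hairpin the mean levels were 1163 CPM for Mir375, 113 CPM for Mir7-1, 93.1 CPM for Mir7b and 36.7 CPM for Mir7-2, in the same order. The hairpin of Mir375 has a GC content of 67.2%, and among 339 detected genes with a hairpin in the RefSeq table only 20 had a higher one. Those of the Mir7 genes had 41.7% (Mir7-1), 46.8% (Mir7b) and 50.5% (Mir7-2), against a median of 50.9%. The part of base composition in the gap between Mir375 and the Mir7 genes was not tested.

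Added together, the 3 Mir7 genes had the same level in both pools, although their make-up differed. Their sum was 1232 counts in replicate 1 and 1548 in replicate 2, which is 261 CPM in each (intervals 247 to 276 and 248 to 274). Mir375 stood at 2.89 times this sum in replicate 1 and at 2.81 times in replicate 2. Mir7-1 supplied 47.0% of the sum in replicate 1 (interval 44.2 to 49.8) and 46.6% in replicate 2 (interval 44.1 to 49.1), a steady share. Mir7b supplied 35.1% in replicate 1 (interval 32.4 to 37.8) and 44.1% in replicate 2 (interval 41.6 to 46.6). Mir7-2 supplied 17.9% in replicate 1 (interval 15.8 to 20.2) and 9.30% in replicate 2 (interval 7.90 to 10.9). Shares of a sum are tied to each other, so these do not add to the separate levels given above. The sum was looked at after its parts were known, and it leaves out reads that fit both Mir7a hairpins.

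**Figure D2:**
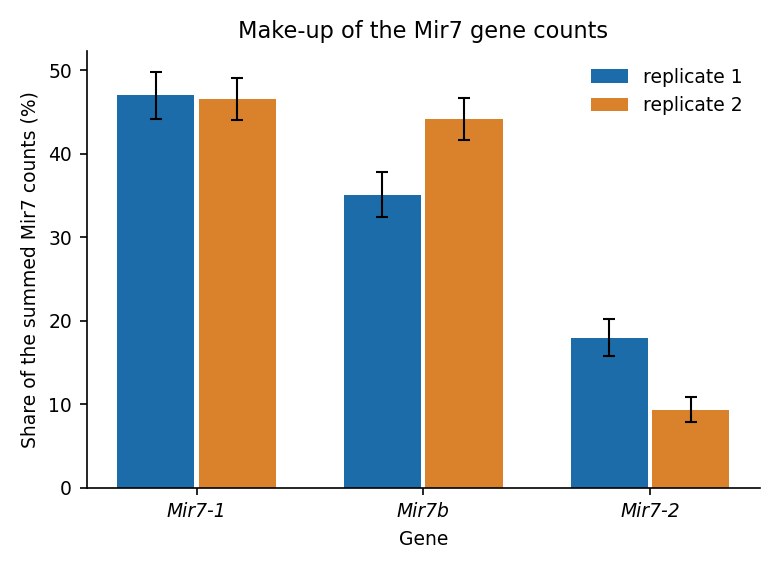
Share of the summed own-strand counts of the Mir7 genes (%, bars from 0) held by each gene in replicate 1 (left bar) and replicate 2 (right bar), with exact 95% intervals for counting error. Mir7-1 holds 47.0% and 46.6%, while Mir7b is higher and Mir7-2 lower in replicate 2.

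Set against all detected genes, the spread of Mir375 and Mir7-1 between the pools was small and that of Mir7-2 wide. The log2 ratio of replicate 1 over replicate 2 was 0.04 for Mir375 (exact interval -0.025 to 0.10) and 0.01 for Mir7-1 (interval -0.15 to 0.17), and neither interval leaves out 0. It was -0.33 for Mir7b (interval -0.51 to -0.16) and 0.95 for Mir7-2 (interval 0.64 to 1.26). The intervals of Mir7b and Mir7-2 leave out 0, as did those of 54.9% of detected genes, so 2 of 4 members is near that background. A ratio of at least 2-fold in either direction was reached by 18 of 395 genes (4.56%) and by 0 of the 4 members, with Mir7-2 just short of it at 1.93-fold. Of the detected genes, 22 (5.57%) had a ratio at least as far from 0 as Mir7-2, against 131 (33.2%) for Mir7b, 342 (86.6%) for Mir375 and 374 (94.7%) for Mir7-1. The median absolute log2 ratio of detected genes was 0.23. These ratios compare 2 libraries and have no replicate check.

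**Figure D3:**
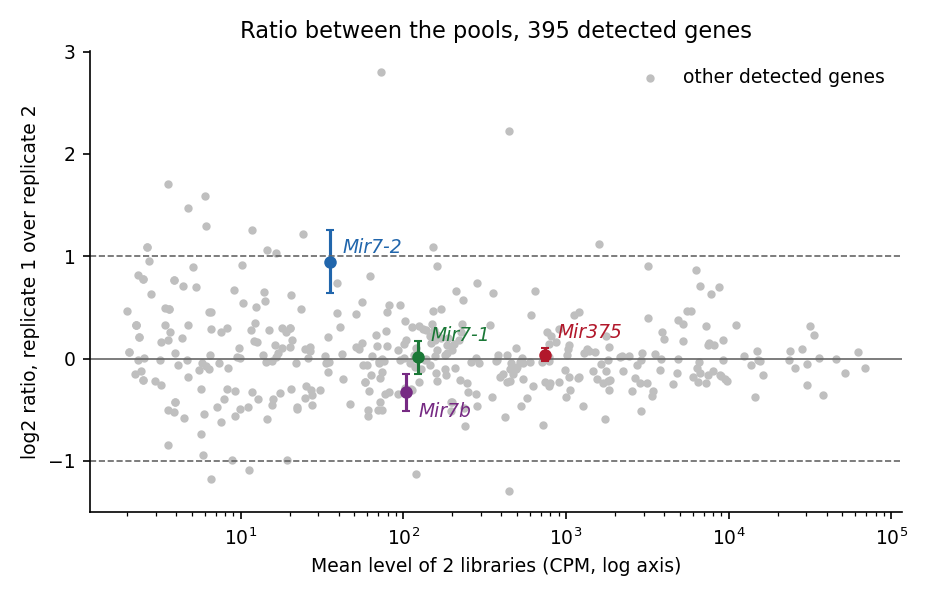
log2 ratio of replicate 1 over replicate 2 against the mean level in CPM (log axis) of the 395 detected genes, with the members in colour, exact 95% intervals on the members and dashed lines at 2-fold. Mir375 and Mir7-1 lie on the zero line, Mir7b at -0.33 and Mir7-2 at 0.95, under the upper dashed line.

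No read lay on the strand opposite to any of the 4 genes. The count was 0 in both libraries, which allows up to 0.636 CPM in replicate 1 and 0.506 CPM in replicate 2. That was common, since 86.1% of detected genes had 0 such counts in both libraries. A stretch of 20 bases in common with a miRNA gene elsewhere was held by 21.8% of detected genes, and among the members by Mir7-1 and Mir7-2, each with the other.

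The detected genes next to each member in mean CPM had like levels over the 2 libraries, a likeness that says nothing of a shared role. For Mir375 the next above was Mir320 (746 ± 84.8 CPM), followed by Mir421 and Mir370, and the next below were Mir204 (717 ± 224 CPM), Mirlet7f-2 (707 ± 13.0 CPM) and Mir543. The difference of mean log2(CPM + 1) between Mir375 and these 6 genes was from 0.0019 (Mir320) to 0.25 (Mir543). Mir7-1 lay between Mir1981 (125 ± 19.2 CPM), Mir24-2 and Mir669c above and Mir184 (120 ± 63.1 CPM), Mir5099 and Mir331 below. Mir7-2 lay below Mir135a-1, Mir346 and Mir1198 and above Mir181b-1, Mir592 and Mir488. Among these 6 neighbours of Mir7-2 the log2 ratio of replicate 1 over replicate 2 ran from -0.13 (Mir488) to 0.74 (Mir135a-1), and none reached the 0.95 of Mir7-2. Of them, Mir135a-1 and Mir181b-1 (log2 ratio -0.038) have a stretch of sequence in common with a copy. So do Mirlet7f-2 beside Mir375, and Mir669c and Mir24-2 beside Mir7-1. The counts of such genes leave out reads that fit several places.

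Mir7b lay below Mir34a (104 ± 16.2 CPM), Mirlet7a-1 and Mir222, and above Mir7j, Mir452 and Mirlet7c-1. Among these, Mirlet7a-1 and Mirlet7c-1 have a stretch of sequence in common with a copy. Mir7j, at 103 ± 18.3 CPM, has a symbol like those of the Mir7 genes but is a let-7 gene. It is at chr3:140028249-140028370, and the mature entry of that gene in RefSeq, with the seed in capitals, shows the difference.
mmu-let-7j: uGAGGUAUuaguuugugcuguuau
Its seed GAGGUAU is not that of miR-7, its hairpin holds no miR-7 seed, and its longest stretch in common with the Mir7b hairpin was 7 bases. It was not counted as a member.

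Genes of 4 lists named for cell types were set beside the members. Of the 23 named neural genes, 22 matched the tables and 17 were detected, with a median of 78.7 CPM, against 122 CPM over all detected genes. Mir137, which acts in neurons, was the only detected neural gene above Mir375, at 789 ± 6.96 CPM. Next came Mir330 at 279 ± 1.27 CPM, then Mir138-1 and Mir132. Of the 22 genes, 15 had a stretch of sequence in common with a copy, including Mir138-1, so their counts too leave out reads that fit both places. For 3 Mir124a genes, which are defining markers of neurons, the counts in either library were at most 4, and all 3 have such copies.

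Genes reported from islet beta cells or from hormone secretion, leaving out the members, had a higher median as counted. Of 14 named, 13 matched. A stretch of sequence in common with a copy was held by 4 of the 13, against 15 of the 22 neural genes. The lists were thus not counted on a like basis. In the islet and secretion list 12 genes were detected, with a median of 421 CPM, and 5 of the 12 exceeded Mir375. These were Mir182, Mir183 and Mir96, which are transcribed together and are also known from sensory cells, and Mir30d and Mir148a, with Mir182 highest at 15518 ± 198 CPM. Mir184 of this list was at least 2-fold apart between the pools, with a log2 ratio of -1.13, a size that Mir7-2 came near with 0.95.

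The genes that mark the labelled tissue were present, most of them above Mir375. All 7 epithelial genes were detected, from Mir141 at 526 ± 119 CPM to Mir429 at 9806 ± 1047 CPM, with a median of 4533 CPM, and 5 of them exceeded Mir375. All 6 genes of mesenchyme and cartilage were detected, from 27.3 CPM (Mir199a-1) to 45770 CPM (Mir214), with a median of 1769 CPM. Of these, 3 (Mir199a-1, Mir199a-2 and Mir199b) had a stretch of sequence in common with a copy. Their counts leave out reads that fit both places, so 27.3 CPM is not the amount of that miRNA. Between the pools, the neural list had 14 of 17 detected genes higher in replicate 1 (median log2 ratio 0.15). The islet and secretion list had 4 of 12 higher in replicate 1 (median -0.10), the epithelial list 1 of 7 (median -0.22) and the mesenchyme and cartilage list 2 of 6 (median -0.067). The median over all detected genes was -0.0026, close to an even split between the pools. Some listed genes are copies of each other, such as Mir138-1 and Mir138-2, and do not count as independent. The part of these lists in the ratios of the members was not tested.

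**Figure D4:**
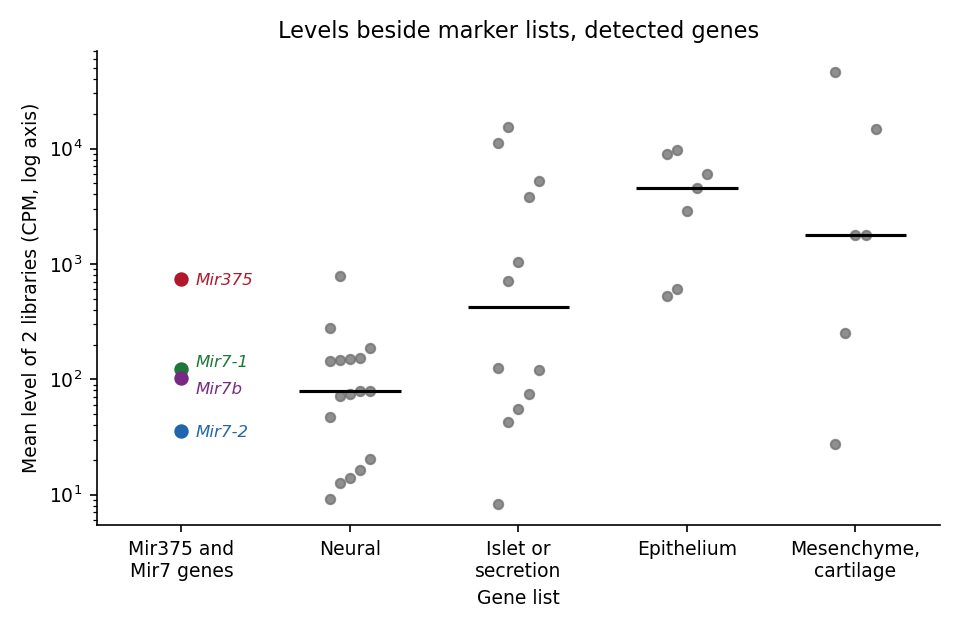
Mean level of the 2 libraries in CPM (log axis) for the members (coloured, named) and for the detected genes of each list (grey points, median as a black line). As counted, Mir375 lies above all detected neural genes but Mir137. The Mir7 genes lie within the ranges of the neural, the islet or secretion and the mesenchyme and cartilage lists, and below the epithelial list.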

How the data were processed

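The authors deposited, library by library, raw read counts of miRNA genes as whole numbers, neither normalised nor pooled. Per the labels the alignment was to mm10, and the text deposited beside each table names annotation M4. The aligner, the counter and the trimming are not given in the sources used here. The tables have no header. They give counts on both strands, on 1 strand and on the other, and the column holding most reads on genes was taken as the own strand. The other strand held 3.24% and 3.29% of reads on genes. Another 4 entries that name no gene stayed out of library sizes: unmapped (25.7% and 19.4%), several places (26.0% and 27.9%), outside genes (6.95% and 6.30%) and ambiguous (0).

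CPM, ratios and exact intervals were computed with SciPy 1.17.1. Size factors came from edgeR 4.0.16 (TMM) and DESeq2 1.42.0 and served as alternatives. Symbols came from GENCODE M21 for 1894 of 1973 identifiers, matched without the version, since that of Mir375 differs. Stretches of 20 bases in common were searched on both strands of the hairpins of listed genes in GENCODE M21. The ratio and its interval were tried on simulated counts with counting error alone. The 2 libraries differ by more than that, so the simulation says nothing of the spread between pools. With 1 group, no test between conditions was possible. To see whether 1 library had been deposited again, their counts were compared with counting error alone, which separate pools exceed in any case; they were not the same counts (chi-square 73700 on 394 degrees of freedom). The members and lists were chosen with earlier results of these data known. Named genes were the members, their 3 nearest detected genes above and below, their genomic neighbours and up to 4 highest genes of each list. Further names (Mir7j, Mir148a, Mir124a, Mir138-2, Mir141, Mir199a-1, Mir199a-2) were chosen after their values were seen.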

Additional observations from a re-analysis of the deposited data

Results flagged for a closer look

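Reads with several mapping places made up 26.0% of replicate 1 (exact interval 25.99 to 26.05) and 27.9% of replicate 2 (interval 27.92 to 27.97), a signal outside the gene counts used here. Reads of mmu-miR-7a-5p that fit both Mir7-1 and Mir7-2 belong to this entry, but the tables do not say how many there were. With 2 libraries, the libraries were not tested for standing apart from their group.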

How the results depend on the processing

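Of 54 recomputed values, 43 were classed as the same as the reported value and 11 as moved. The numbers of genes have no error of their own, and 277 detected genes against 395 was classed as the same. This tally is no measure of robustness. Leaving out 1 of 2 libraries gives the level of the other, which cannot lie further from their mean than the SD. Those levels could not move, even for Mir7-2, whose libraries lay far apart. For Mir7-1, with an SD of 0.768 CPM, a small shift counted as moved. With all reads of a library as the denominator, the mean levels were 326 (Mir375), 53.5 (Mir7-1), 45.6 (Mir7b) and 15.3 (Mir7-2) per 1000000 reads, in the same order. With both strands counted, Mir375 stood at 720 CPM and Mir7-1 at 118 CPM, and without genes that share a stretch in the denominator at 824 and 135 CPM. A minimum of 1 count gave 631 detected genes and 114 at least 2-fold apart, and a minimum of 100 counts gave 277 and 6. Leaving out either replicate gave 734 to 755 CPM for Mir375, 122 to 123 CPM for Mir7-1, 91.5 to 115 CPM for Mir7b, 24.3 to 46.8 CPM for Mir7-2 and 409 to 421 detected genes. The log2 ratio of Mir7-2 was 0.92 to 0.95 under every scaling and pseudocount tried, and that of Mir7-1 was -0.0019 with DESeq2 size factors. No paired analysis was possible because the study has 1 group. With 2 libraries, the spread between pools is itself known only roughly.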
